A study of Homo sapiens with 6 samples.

Results

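Expression of 10 immediate early genes was followed after knockdown of the EWSR1::ATF1 fusion gene (EA1) in SU-CCS-1 cells. The genes were picked by name as rows of the gene count table: EGR1, EGR2, EGR3, IER2, IER3, IER5, KLF4, KLF6, KLF10 and ZFP36. All 10 were present among 18118 genes, and 9 of them were among the 14571 genes with enough reads to be tested, EGR2 being the exception. SU-CCS-1 is an established human clear cell sarcoma line that carries EA1, and it is the only line compared here. Every library came from these cells after transfection of an siRNA, a short duplex RNA that directs degradation of a matching transcript. The study's methods give a transfection time of days rather than minutes. The control group received the negative control siRNA siNeg1, and the knockdown groups received siEA1-1 or siEA1-2, the EA1 siRNAs, shown as siRNA 1 and siRNA 2 in the plots. There were 2 libraries in each of the 3 groups. Nothing in the sample descriptions says that libraries of a group came from separate cultures, so the p-values measure only the spread between these libraries, which may be technical.

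Immediate early genes are transcribed within minutes of a signal such as serum, a growth factor or stress, without new protein synthesis. Signals reach them largely through the MAP kinase cascade, which acts on the serum response factor SRF and its ETS partners at CArG box sequences and on CREB and ATF proteins at cyclic AMP response elements. Many of their transcripts are short-lived, and many of the products are transcription factors. ATF1, the DNA-binding partner in EA1, belongs to the CREB family and recognises the cyclic AMP response element TGACGTCA or its shorter core TGACG.

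Promoter sequences of 300 bases (250 before and 50 after the start of transcription) were read from RefSeq on GRCh38.p14, where 7 of the 10 genes had an entry, with 9 promoters in all. EGR3, IER3 and KLF10 had no entry. Stretches of 4 promoters are shown because they hold letters that ATF1 or SRF are known to bind or, in KLF6, a variant of them. The stretch around the IER2 match overlaps an annotated exon and is not shown. Capitals mark TGACG on either strand, the variant TGACATCA, and the CArG box. Each sequence is written 5′ to 3′ on the strand of its gene, with the genomic interval and strand after the name.
EGR1, chr5:138465329-138465432, plus strand, outside annotated transcripts: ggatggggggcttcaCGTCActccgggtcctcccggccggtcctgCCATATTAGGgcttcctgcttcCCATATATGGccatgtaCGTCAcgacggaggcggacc
EGR2, chr10:62816401-62816491, minus strand, in an intron of longer EGR2 transcripts: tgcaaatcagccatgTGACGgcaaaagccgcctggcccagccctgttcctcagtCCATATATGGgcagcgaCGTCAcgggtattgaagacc
KLF4, chr9:107489960-107490019, minus strand, in an intron of a longer KLF4 transcript: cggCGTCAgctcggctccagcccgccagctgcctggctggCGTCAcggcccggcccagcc
KLF6, chr10:3785359-3785396, minus strand, outside annotated transcripts: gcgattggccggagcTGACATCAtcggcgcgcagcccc

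Searched on both strands over whole promoters, the 8-letter element TGACGTCA was in none of the 9 promoters of these genes and in 1.85% of the 35116 promoters in the table. TGACG, which is also part of the longer element, occurred 2 times each in EGR1, KLF4 and 1 of the 3 EGR2 promoters and 1 time in IER2, against 24.6% of all promoters with at least 1. The CArG box was found 2 times in EGR1 and 1 time in the same EGR2 promoter, and in 1.29% of all promoters. TGACATCA occurred 1 time in KLF6, and in 2.61% of all promoters. The EGR site GCGGGGGCG, found in 5.07% of all promoters, was also present in KLF6, where it overlaps a GC box. The GC box GGGCGG was the most widespread of the motifs, with 45.0% of all promoters holding it. There were 3 copies in ZFP36, 4 each in KLF4, IER2 and 1 EGR2 promoter, and 2 each in KLF6 and another EGR2 promoter. The EGR2 promoter with the CArG box held none. None of the searched motifs was in the IER5 window. TGAGTCA, GCGTGGGCG, CCGGAAGT and TATAAA, held by 4.95%, 0.795%, 4.14% and 11.5% of all promoters, were in none of the windows of these genes. These are matches of letters, not measured binding.

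Each library held between 5942808 and 7599305 counted reads, so 3 reads correspond to 0.386 to 0.534 CPM (counts scaled to library size, here with TMM factors). ATF1, which the siRNAs should lower as part of EA1, was at 84.8 ± 3.72 CPM in control (SD, n = 2 here and below), 20.7 ± 0.660 with siEA1-1 and 22.0 ± 0.427 with siEA1-2. EWSR1 was at 215.5 ± 25.2, 199 ± 5.53 and 209 ± 16.1 CPM. Counts per gene do not separate fusion transcripts from transcripts of the intact ATF1 and EWSR1 alleles. All 8 listed markers of the melanocyte-like SU-CCS-1 state were in the table, and their summed level was 2978 to 3175 CPM in control, 8679 to 8694 with siEA1-1 and 7664 to 12201 with siEA1-2. PMEL held much of that sum, with means of 1220, 4845 and 6004 CPM in the groups in turn. SOX10, another of the markers, was at 827, 883 and 967. TYR was at 12.1, 90.1 and 121. MLANA, a melanosome protein and 1 of these 8, was low throughout, at 0 to 4.27 CPM, with means of 0.299, 2.04 and 3.19. Of the fibroblast and muscle markers 2 of 9 were in the table, with summed levels of 2.70 to 3.44 CPM in control, 8.89 to 11.9 with siEA1-1 and 12.9 to 23.0 with siEA1-2. The 1 of 5 epithelial markers in the table lay between 0.140 and 2.57 CPM, and the 3 of 7 immune and endothelial markers summed to 1.03 to 3.09 CPM. The part of these shifts in the results below was not tested, and fewer cells of a type and less RNA per cell cannot be told apart in bulk RNA.

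The immediate early genes did not all move one way when EA1 was lowered. A log2 fold change (log2FC) is given as control minus knockdown, so that a positive value is a gene higher in control, and a gene was called at an adjusted p under 0.05. With siEA1-1, 5 of the 9 tested genes were higher in control (IER2, IER3, KLF4, KLF10 and ZFP36), 2 were lower (EGR1 and KLF6) and 2 were not called (EGR3 and IER5). Over all genes tested, 20.3% were called higher, 19.9% lower and thus 40.1% in either direction in that comparison. With siEA1-2, 6 were higher in control, IER5 joining the same 5, KLF6 was lower, and EGR1 and EGR3 were not called, against 18.2% of all genes higher, 18.5% lower and 36.7% in either direction. The median log2FC of the 9 genes was 0.65 with siEA1-1 and 0.95 with siEA1-2, where the medians of all genes were -0.02 and -0.00. Both comparisons use the same 2 control libraries. Against the mean of both EA1 siRNAs, the 5 genes IER2, IER3, KLF4, KLF10 and ZFP36 were called higher in control and EGR1 and KLF6 lower, where 22.1% of all genes were higher, 21.5% lower and 43.5% called in either direction. Summed over the 10 genes, the level was 443 and 420 CPM in control, 396 and 424 with siEA1-1 and 259 and 312 with siEA1-2. The sums of control and siEA1-1 overlapped, and both siEA1-2 libraries were below the other 4.

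**Figure D1:**
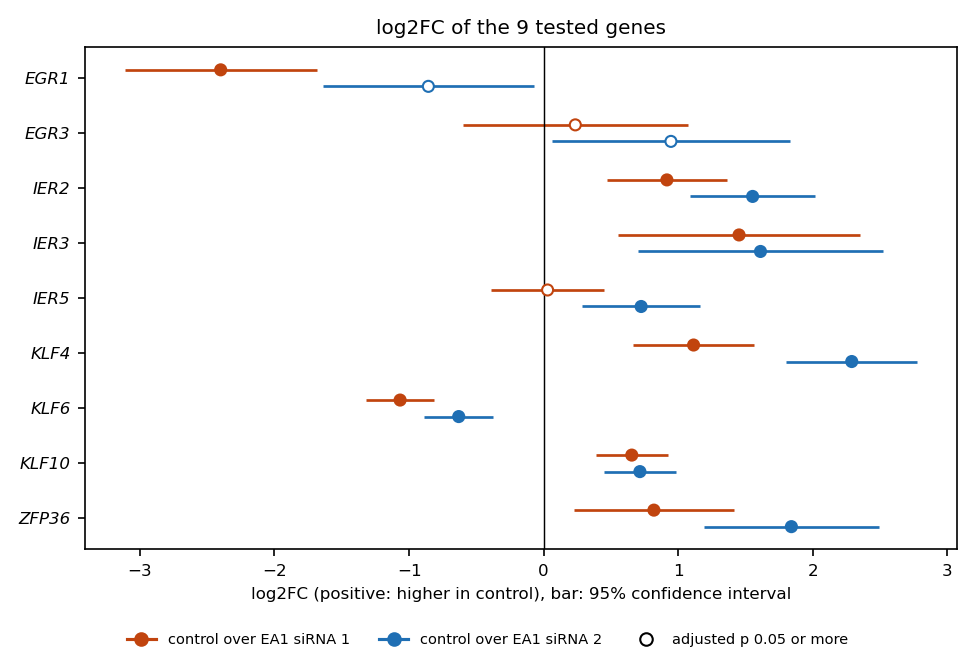
Log2FC of control over siEA1-1 and over siEA1-2 for the 9 tested genes on the x axis, with 95% confidence intervals as bars, a line at 0 and open points for an adjusted p of 0.05 or more. IER2, IER3, KLF4, KLF10 and ZFP36 lie right of 0 with both siRNAs, KLF6 lies left of 0 with both, and EGR1 spreads from -2.40 with siEA1-1 to -0.86 with siEA1-2.

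In ranges of CPM, 7 of the 9 tested genes had control libraries that did not overlap any of the 4 knockdown libraries. IER2, IER3, KLF4, KLF10 and ZFP36 were higher in both control libraries, and EGR1 and KLF6 were lower. Over all genes tested, 27.3% were separated with control higher and 28.1% with control lower, 55.4% in all. EGR3 and IER5 overlapped.

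**Figure D2:**
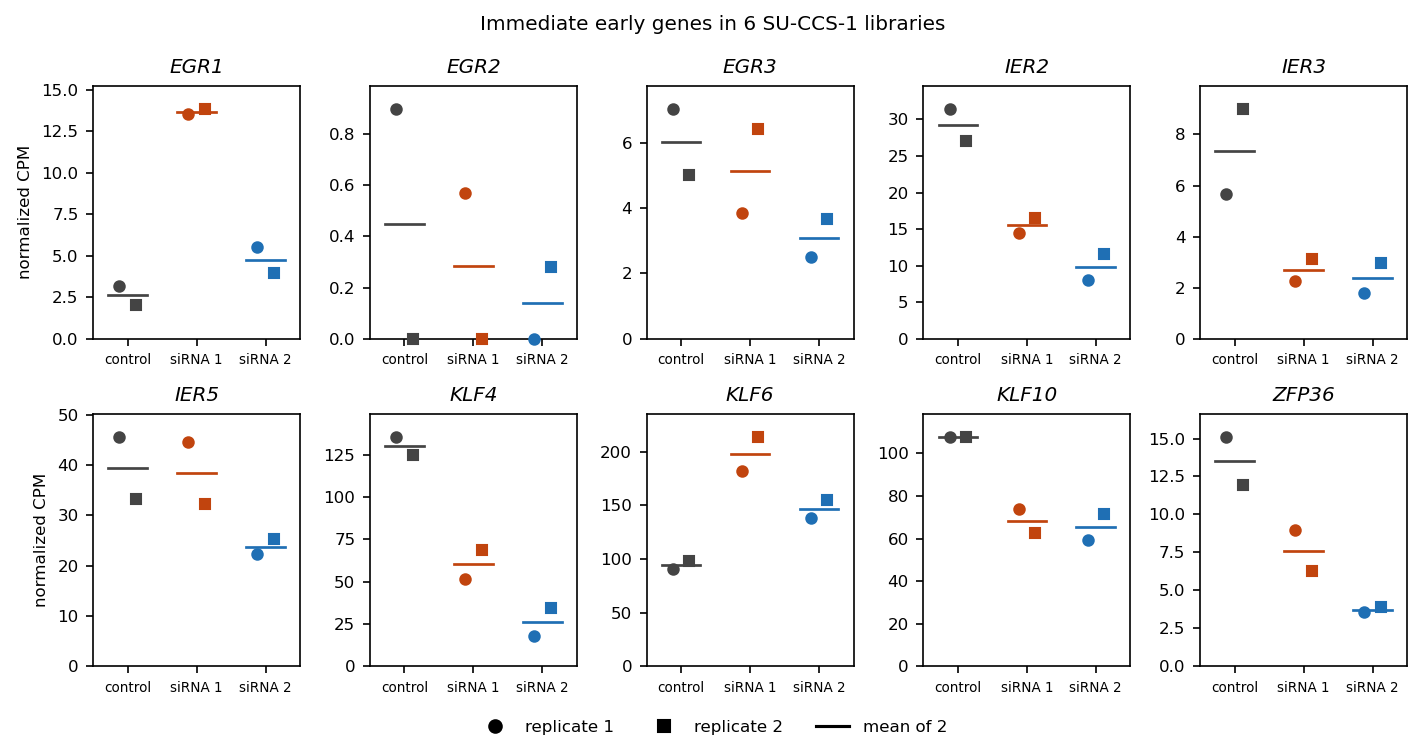
TMM-scaled CPM of each of the 10 genes in the 6 libraries, 1 panel per gene with its own linear y axis from 0. Points are libraries and horizontal lines are group means of 2 libraries. KLF4 steps down from a mean of 130.2 in control to 60.3 and 26.2 CPM with the EA1 siRNAs, KLF6 goes up from 94.5 to 198 and 146, and EGR1 is raised most with siEA1-1.

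The EGR genes encode zinc finger transcription factors that bind GC-rich sites. EGR1 (chr5:138465479-138469303 in hg38) had 21 and 16 reads in control, 95 and 84 with siEA1-1 and 31 and 28 with siEA1-2, or 3.14 and 2.06, 13.5 and 13.8, and 5.52 and 3.93 CPM. The libraries with siEA1-1 stood far above all others, those with siEA1-2 lay just above control, and no 2 groups overlapped. EGR1 was 5.28-fold higher with siEA1-1 than in control (log2FC -2.40, SE 0.33, adjusted p = 0.000133). Of all genes tested, 96.1% had a smaller change in this comparison. With siEA1-2 the log2FC was -0.86 (95% confidence interval -1.64 to -0.07), and the adjusted p of 0.0827 missed the threshold. The EGR1 promoter is the one shown above with TGACG and the CArG box in 2 copies each.

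EGR3 (chr8:22687659-22693480), a relative of EGR1 active in nerve and immune cells, gave 47 and 39 reads in control, 27 and 39 with siEA1-1 and 14 and 26 with siEA1-2. In CPM these were 7.03 and 5.01, 3.84 and 6.42, and 2.49 and 3.65. The control and siEA1-1 ranges overlapped, while both siEA1-2 libraries were below both control libraries. EGR3 was called with neither siRNA (log2FC 0.24, interval -0.60 to 1.07, and 0.95, interval 0.06 to 1.83, with adjusted p = 0.663 and 0.0890). EGR2 (chr10:62811996-62819167), which is needed for peripheral myelin, had 6 and 0 reads in control, 4 and 0 with siEA1-1 and 0 and 2 with siEA1-2. It was therefore at or near the limit of detection everywhere, since a count of 0 allows up to 3 reads, and no direction can be read from it. The counts of EGR1 and EGR3 turned around in relation to each other. EGR1 had 0.447 and 0.410 reads per EGR3 read in control, 3.52 and 2.15 with siEA1-1 and 2.21 and 1.08 with siEA1-2, a ratio taken within each library and free of scaling between libraries. Of the NAB corepressors that bind EGR proteins, 2 were tested. NAB1 was at 50.9 and 53.1 CPM in control and 78.8 and 68.2 with siEA1-1 (log2FC -0.50, adjusted p = 0.00534), and at 57.5 and 53.6 CPM with siEA1-2, where it was not called (log2FC -0.09). The difference between the siRNAs was not called for NAB1 (log2FC 0.41, adjusted p = 0.104). NAB2 was called with neither.

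IER2 (chr19:13150411-13154911), whose product is a small nuclear regulator of transcription, fell with both siRNAs. It was at 31.4 and 27.0 CPM in control, 14.5 and 16.5 with siEA1-1 and 8.01 and 11.7 with siEA1-2. The 3 groups did not overlap and lay in that order. IER2 was 1.89-fold higher in control than with siEA1-1 (log2FC 0.92, SE 0.20, adjusted p = 0.00367) and 2.93-fold higher than with siEA1-2 (log2FC 1.55, SE 0.21, adjusted p = 0.000180).

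IER3 (chr6:30743199-30744548), a stress-induced protein that influences cell survival, was at a lower level, with 38 and 70 reads in control, 16 and 19 with siEA1-1 and 10 and 21 with siEA1-2. Those were 5.69 and 9.0, 2.28 and 3.13, and 1.78 and 2.95 CPM. Both control libraries were above all 4 knockdown libraries, and the knockdown groups overlapped each other. IER3 was 2.74-fold higher in control than with siEA1-1 and 3.05-fold higher than with siEA1-2 (log2FC 1.45, SE 0.41, and 1.61, SE 0.42, adjusted p = 0.0144 and 0.0101). The call rested on single libraries. Without control replicate 2 the adjusted p was 0.137 with siEA1-1 and 0.102 with siEA1-2, and without replicate 1 of siEA1-1 it was 0.119 for that siRNA. The strand setting of the read counting is not given in the sources used here, and 759 bases of IER3 are shared with HCG20 on the opposite strand, which had 1 to 9 reads per library.

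IER5 (chr1:181088700-181092900), which takes part in the heat shock response, was not called with siEA1-1. It was at 45.7 and 33.3 CPM in control, 44.7 and 32.3 with siEA1-1 and 22.3 and 25.3 with siEA1-2. The first pair of groups covered nearly the same range, and both siEA1-2 libraries were below it. The log2FC was 0.03 with siEA1-1 (interval -0.39 to 0.45, adjusted p = 0.921) and 0.72 with siEA1-2 (SE 0.20, adjusted p = 0.0146). Without control replicate 1 the latter was 0.48 with an adjusted p of 0.138. IER5 gave 1.45 and 1.23 reads per IER2 read in control, 3.08 and 1.96 with siEA1-1 and 2.78 and 2.17 with siEA1-2, so the balance of the pair was higher in all 4 knockdown libraries than in control. None of 3 further genes listed beside the IER genes, IER5L, IER3IP1 and SERTAD1, was called with either siRNA in edgeR or in DESeq2, and 1 of the 3 had an unadjusted p under 0.05 in edgeR with each siRNA.

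The 3 KLF genes had the highest CPM of the group in control, and they moved in opposite directions. KLF4 (chr9:107484852-107490482), a zinc finger transcription factor best known as a reprogramming factor, was at 136 and 125 CPM in control, 51.8 and 68.8 with siEA1-1 and 18.2 and 34.3 with siEA1-2. The groups did not overlap, and the lowest library had 102 KLF4 reads where the control libraries had 906 and 971. KLF4 was 2.16-fold higher in control than with siEA1-1 and 4.89-fold higher than with siEA1-2 (log2FC 1.11, SE 0.21, and 2.29, SE 0.22, adjusted p = 0.00116 and 1.52e-05). Of all genes tested, 96.1% had a smaller change with siEA1-2.

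KLF6 (chr10:3775996-3785281), a related factor studied as a growth suppressor, went the other way. Its level was 90.4 and 98.6 CPM in control, 182 and 214 with siEA1-1 and 138 and 155 with siEA1-2. The groups again did not overlap, with control lowest and siEA1-1 highest. KLF6 was 2.09-fold higher with siEA1-1 and 1.55-fold higher with siEA1-2 than in control (log2FC -1.07 and -0.63, SE 0.12 for both, adjusted p = 2.61e-05 and 0.00133).

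KLF10 (chr8:102648784-102655725), first described as an early gene induced by TGF-beta, was at 108 CPM in both control libraries, 74.0 and 62.7 with siEA1-1 and 59.5 and 71.5 with siEA1-2. All 4 knockdown libraries were below control and their ranges overlapped. The folds were 1.57 and 1.64 (log2FC 0.65 and 0.72, SE 0.12 for both, adjusted p = 0.00128 and 0.000868). KLF4 had 1.5 and 1.27 reads per KLF6 read in control, 0.284 and 0.322 with siEA1-1 and 0.132 and 0.221 with siEA1-2. KLF10 had 1.19 and 1.09 reads per KLF6 read in control, 0.406 and 0.293 with siEA1-1 and 0.431 and 0.462 with siEA1-2. In the control libraries KLF6 had the fewest reads of the 3 genes, and in the 4 knockdown libraries it had the most.

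**Figure D3:**
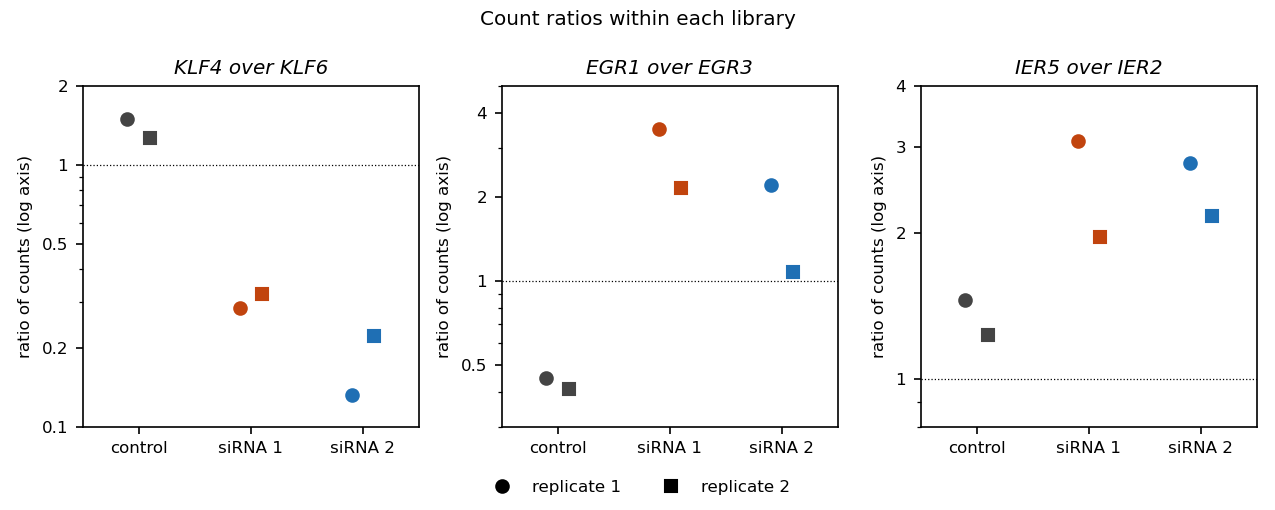
Ratio of read counts of 2 genes within the same library on a log y axis, 1 panel per pair, for control and the EA1 siRNAs. Points are libraries and the dotted line is at 1. Reads are not divided by gene length, so the height of a ratio against that line also depends on the lengths of its genes. KLF4 over KLF6 crosses from above 1 in control to below 1 in all 4 knockdown libraries, EGR1 over EGR3 crosses from below 1 to above 1, and IER5 over IER2 is above 1 in all 6 and lowest in control.

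The rest of the KLF family was read for comparison. Of 10 other KLF genes tested, 3 were higher and 3 lower in control with siEA1-1, and 4 were higher and 3 lower with siEA1-2, with median log2FC of -0.19 and 0.20. Among all genes tested, 20.3% were higher and 19.9% lower with siEA1-1, and 18.2% and 18.5% with siEA1-2. KLF5, KLF9 and KLF16 were higher in control with each siRNA. KLF5, an epithelial growth regulator, was at 21.7 and 18.0 CPM in control and 2.11 to 3.92 in the 4 knockdown libraries (log2FC 2.62 and 2.74 with the siRNAs in turn). KLF9 had a log2FC of 0.62 and 0.99, the former with an adjusted p of 0.00742 that was 0.0787 without replicate 1 of siEA1-1, and KLF16 one of 0.55 and 0.77. KLF7 and KLF12 were lower in control with each. KLF7, which acts in neurons, was at 67.1 and 73.0 CPM in control, 175 and 223 with siEA1-1 and 116 and 122 with siEA1-2 (log2FC -1.50 and -0.76), the same order of groups as for KLF6. KLF12 had a log2FC of -1.11 and -0.76. KLF13 and KLF3 were called with neither siRNA. With upper quartile scaling, KLF13 was called lower in control with siEA1-1 (log2FC -0.28, adjusted p = 0.0446 in edgeR).

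**Figure D4:**
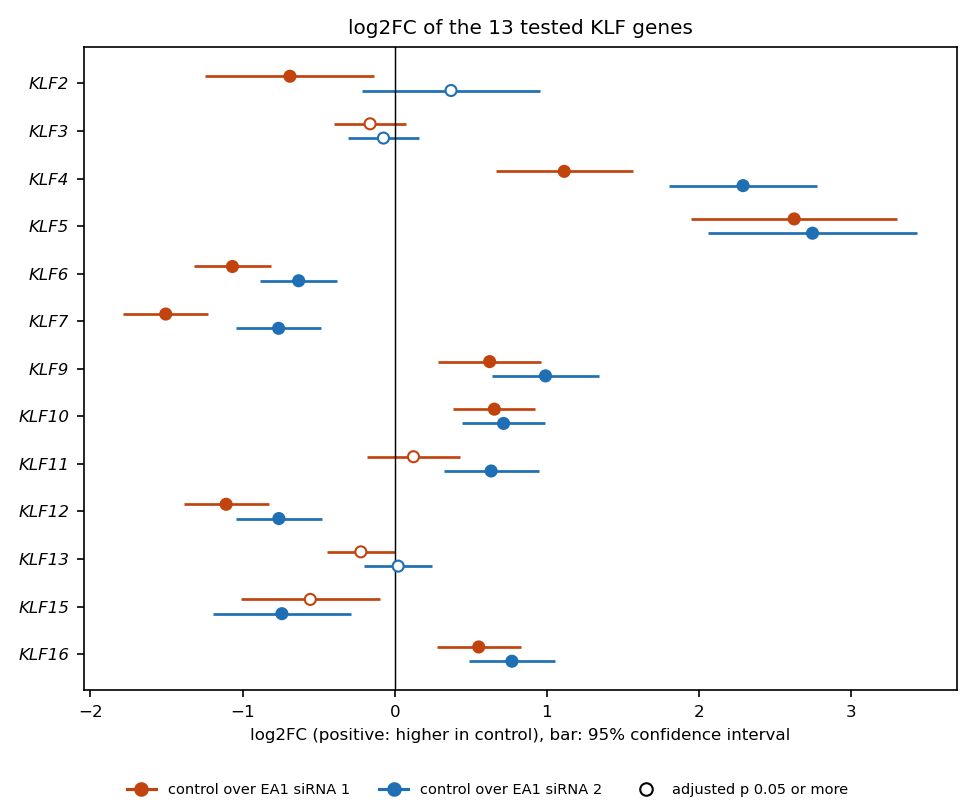
Log2FC of control over siEA1-1 and over siEA1-2 with 95% confidence intervals for KLF4, KLF6, KLF10 and the other KLF genes tested. Intervals of KLF4, KLF5, KLF9, KLF10 and KLF16 are right of 0 with both siRNAs, those of KLF6, KLF7, KLF12 and KLF15 are left of 0 with both, and open points mark an adjusted p of 0.05 or more.

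ZFP36 (chr19:39406847-39409412) encodes tristetraprolin, which binds AU-rich elements of short-lived transcripts and recruits the CCR4-NOT deadenylase to them. It was at 15.1 and 12 CPM in control, 8.96 and 6.26 with siEA1-1 and 3.56 and 3.93 with siEA1-2. The 3 groups did not overlap, with siEA1-2 lowest. ZFP36 was 3.58-fold higher in control than with siEA1-2 (log2FC 1.84, SE 0.30, adjusted p = 0.000563) and 1.76-fold higher than with siEA1-1 (log2FC 0.82, SE 0.27, adjusted p = 0.0316). The siEA1-1 call was lost without control replicate 1 (adjusted p = 0.185), without replicate 2 of siEA1-1 (0.207) and in DESeq2 (0.0994). Of 12 tested genes of the ZFP36 family and CCR4-NOT, 2 were higher and 1 lower in control with siEA1-1, and 4 higher and 1 lower with siEA1-2. Among all genes tested, 20.3% were higher and 19.9% lower with siEA1-1, and 18.2% and 18.5% with siEA1-2. The median log2FC of the 12 genes was 0.14 and 0.20. ZFP36L2, a paralog with the same binding domain, moved opposite to ZFP36, from 86.7 and 83.1 CPM in control to 181 and 182 with siEA1-1 and 131 and 113 with siEA1-2 (log2FC -1.10 and -0.52). CNOT2, a CCR4-NOT subunit, and CNOT9 were higher in control with each (log2FC 0.46 and 0.59 for CNOT2, 0.33 and 0.40 for CNOT9). The CNOT2 call with siEA1-1 was lost in some alternatives with 1 library left out. The CNOT9 call with siEA1-1 was lost without any 1 control or siEA1-1 library, with upper quartile scaling (adjusted p = 0.0579) and in DESeq2 over all libraries (0.0554). With siEA1-2 it was lost without control replicate 2 and in DESeq2 on the libraries compared (0.0627).

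The levels of different genes were compared per kilobase of annotated exon (CPM per kb, GENCODE 44). In control the order was KLF4 at 35.6, KLF10 at 28.2 and KLF6 at 15.4, followed by IER2 at 9.49 and IER5 at 9.40, whose libraries overlapped. ZFP36 at 6.85 and IER3 at 5.44 came next and overlapped, then EGR3 at 1.2 and EGR1 at 0.829, which also overlapped, and EGR2 at 0.121. With siEA1-1 KLF6 led at 32.3, ahead of KLF10 at 17.9 and KLF4 at 16.5, which overlapped, and EGR1 had moved up beside ZFP36, at 4.36 and 3.85. With siEA1-2 KLF6 led at 23.8 and KLF10 followed at 17.1, while KLF4 at 7.16 overlapped IER5 at 5.66. ZFP36, IER3 and EGR1 were at 1.90, 1.75 and 1.51 there. The first place thus passed from KLF4 to KLF6 with both siRNAs.

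The EA1 siRNAs were then compared with each other, since ATF1 fell to nearly the same level with both (log2FC of siEA1-1 over siEA1-2 -0.09, interval -0.39 to 0.22). All 9 tested genes had a higher estimate with siEA1-1, from 0.06 for KLF10 to 1.54 for EGR1, with a median of 0.69 where the median of all genes was -0.01. EGR1 and KLF4 passed the test, against 0.796% of all genes called higher with siEA1-1, and none of the 9 was called lower, against 1.44% of all genes (2.24% in either direction). EGR1 was 2.91-fold higher with siEA1-1 (log2FC 1.54, SE 0.31, adjusted p = 0.0268) and KLF4 2.26-fold (log2FC 1.18, SE 0.23, adjusted p = 0.0247). The intervals of ZFP36 (0.34 to 1.71), IER5 (0.25 to 1.14), KLF6 (0.19 to 0.68) and IER2 (0.15 to 1.13) lay above 0, but their adjusted p of 0.122, 0.103, 0.0757 and 0.174 missed the threshold. EGR3, IER3 and KLF10 had intervals that held 0 (-0.19 to 1.61, -0.85 to 1.17 and -0.22 to 0.34). Leaving out either siEA1-1 library ended both calls (adjusted p = 0.141 and 0.248 for EGR1, 0.0508 and 0.275 for KLF4).

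Replicates of siEA1-2 leaned the same way for most of the tested genes. Replicate 1 was below replicate 2 for 8 of the 9 tested genes, EGR1 being the exception, where 50.2% of all genes tested were lower in replicate 1. The same count was 3 of 9 in control and 6 of 9 with siEA1-1, where 50.3% and 50.1% of all genes were lower in replicate 1. The 9 genes are not independent of each other, and some gaps were small, as for ZFP36 at 3.56 and 3.93 CPM with siEA1-2. The summed melanocyte-like markers were at 12201 CPM in replicate 1 of siEA1-2 and 7664 in replicate 2. PMEL (7768 and 4241 CPM) and DCT (1696 and 780) held most of that gap. MITF (1175 and 1118) and SOX10 (979 and 954) differed little, and ERBB3 (235 and 286) went the other way. The part of these markers in the replicate difference was not tested. Without replicate 1 of siEA1-2, the log2FC of control over siEA1-2 was 1.95 for KLF4 and 1.34 for IER2, and both remained called.

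Other immediate early genes were read from a list of the class. Of 25 tested, 11 were higher and 6 lower in control with siEA1-1, and 14 were higher and 5 lower with siEA1-2, with median log2FC of 0.30 and 0.78. Among all genes tested, 20.3% were higher and 19.9% lower with siEA1-1, and 18.2% and 18.5% with siEA1-2. The medians of all genes were -0.02 and -0.00. With each siRNA, 10 were higher and 5 lower. Both comparisons use the same 2 control libraries and no share over all genes was taken for this count, so nothing is read from it. PHLDA2, an imprinted growth regulator, went from 91.5 and 109 CPM in control to 3.41 to 8.98 in the knockdown libraries (log2FC 4.49 and 3.54). GEM, a small GTPase, had a log2FC of 4.02 and 3.61, and CSRNP1, a nuclear protein, one of 2.78 and 3.08. PHLDA2, GEM and CSRNP1 were picked for the largest averaged log2FC among the listed genes called higher with each siRNA. Their estimates were larger in size than those of the 9 tested EGR, IER, KLF and ZFP36 genes, a comparison that this choice favours. TRIB1, a pseudokinase, rose from 63.2 and 58.6 CPM in control to between 325 and 490 (log2FC -2.93 and -2.74), and BTG1, an antiproliferative factor, had a log2FC of -1.43 and -1.33. CCN2, a matricellular protein, had one of -1.42 and -0.69, the latter not called under every alternative. Between the siRNAs 2 of the 25 were called, both higher with siEA1-1, where 0.796% of all genes were called higher and 1.44% lower. The 2 are FOS (log2FC 1.2, adjusted p = 0.00478) and JUN (1.6, adjusted p = 0.0357), the AP-1 subunits, named after their values were seen.

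**Figure D5:**
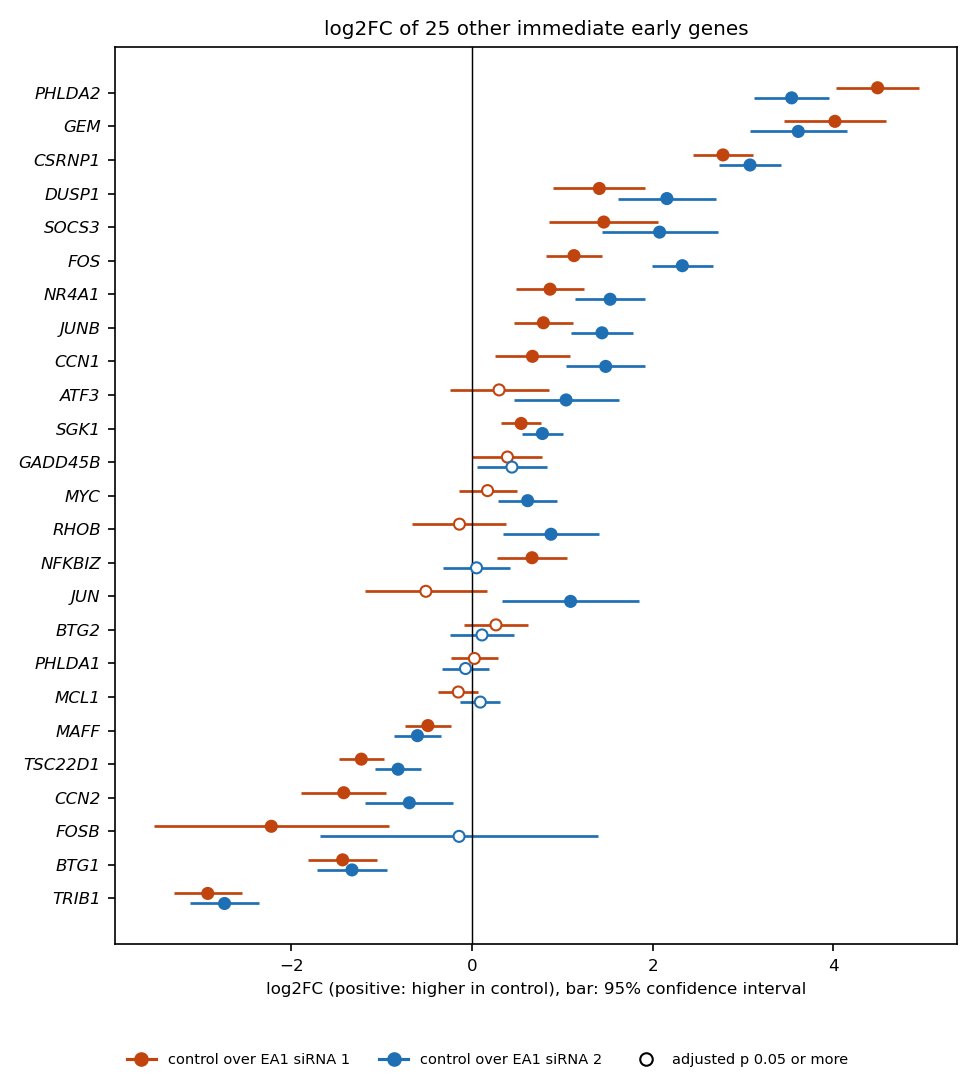
Log2FC of control over siEA1-1 and over siEA1-2 with 95% confidence intervals for the other immediate early genes tested, with open points for an adjusted p of 0.05 or more. The estimates run from -2.93 for TRIB1 to 4.49 for PHLDA2, and genes called higher outnumber those called lower with both siRNAs.

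Genes that act upstream of the class were read last. Of 6 tested genes of the SRF, ETS partner and MRTF group, 0 were called with siEA1-1 by edgeR or DESeq2, with 1 at an unadjusted p under 0.05 in edgeR, and 1 was higher and 1 lower in control with siEA1-2. SRF itself was at 45.2 to 50.6 CPM in all 6 libraries (log2FC -0.02 and 0.07). Of 16 genes of the MAP kinase cascade, 2 were higher and 4 lower in control with siEA1-1, and 2 higher and 5 lower with siEA1-2. Among all genes tested, 20.3% were higher and 19.9% lower with siEA1-1, and 18.2% and 18.5% with siEA1-2. In either direction this was 40.1% and 36.7%, so the cascade was called about as often as all genes. RPS6KA1, a kinase of the RSK family, and MAP2K1, 1 of the kinases above ERK, were higher in control with each (log2FC 0.87 and 1.08 for RPS6KA1, 0.63 and 0.79 for MAP2K1). MAP2K2, another kinase above ERK, went the other way (log2FC -0.24 and -0.30, adjusted p = 0.0900 and 0.0408) and was called with siEA1-2 alone. NRAS, a small GTPase at the head of the cascade, was lower in control, at 141 and 139 CPM against 215 to 261 in the knockdown libraries (log2FC -0.67 and -0.83). RPS6KA2 (log2FC -0.37 and -1.23) and the kinase BRAF (-0.40 and -0.51) were lower as well. The calls of MAP2K1, RPS6KA2 and BRAF with siEA1-1 were not kept under every alternative.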

How the data were processed

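RNA of 6 SU-CCS-1 libraries was sequenced after a stranded mRNA preparation. The authors aligned reads to hg38 and counted them per gene with featureCounts 1.6.3, per the labels, and deposited 1 table of raw counts. The annotation release, strand setting and any filter on low counts are not given in the sources used here. The deposited table has no column without a sample. The study's methods name 1 EA1 siRNA, and the labels list 2, which were kept apart.

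Counts were fitted in edgeR 4.0.16 (R 4.3.3) with the quasi-likelihood test after filterByExpr (minimum count 10, minimum total 15) and TMM scaling, as 3 groups over all 6 libraries, with Benjamini-Hochberg adjustment over 14571 genes. Intervals are at 95%. With 2 libraries a group, precision rests on a spread shared across genes. On simulated data the share of false calls was somewhat above the nominal level when genes differed in dispersion. DESeq2 1.42.0, other scalings, filters and omitted libraries were alternatives. Intervals come from this fit and hold the spread between libraries, and detection limits of reads cover counting error only.

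Gene positions and exon lengths came from GENCODE 44 (18063 of the 18118 identifiers, and all 10 genes, matched). The genes and gene lists were chosen with earlier results of these data known. Named beside the 10 genes were, from each list, up to 3 genes in each direction called with both siRNAs, by averaged log2FC, up to 2 abundant genes called with neither, and the 5 genes most like EGR1. NAB1, IER5L, FOS, JUN, PMEL, MITF, ERBB3 and MAP2K2 were named outside this rule, after their values were seen.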

Additional observations from a re-analysis of the deposited data

Results flagged for a closer look

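The response of 2 genes differed between the EA1 siRNAs in the test of the difference itself. EGR1 was at 13.7 ± 0.228 CPM with siEA1-1 and 4.72 ± 1.12 with siEA1-2, a log2FC of 1.543 (adjusted p = 0.0268, edgeR). KLF4 was at 60.3 ± 12.1 and 26.2 ± 11.4 CPM, a log2FC of 1.175 (adjusted p = 0.0247). In relation to control, EGR1 was further from it with siEA1-1 and KLF4 further from it with siEA1-2. DESeq2 over all 6 libraries called KLF4 and gave no adjusted p for EGR1. Without either siEA1-1 library neither gene was called in edgeR.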

How the results depend on the processing

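In the comparisons of each EA1 siRNA with control, EGR1, EGR3, IER2, KLF4, KLF6 and KLF10 stayed on their side of the test under every alternative that gave a value, as did IER5 with siEA1-1 and ZFP36 with siEA1-2. EGR2, with 0 to 6 reads per library, is limited by depth (without the filter, adjusted p = 0.848 and 0.623). The replicate numbers are not stated to mark a shared batch, and same-numbered libraries deviated together only weakly (r = 0.130, 0.199 and 0.144). With the replicate number as a block, the EA1 siRNAs differed in 323 genes higher with siEA1-1 and 530 lower, where the unblocked test called 116 and 210, and 4 of the 9 genes were called in place of 2, IER5 (adjusted p = 0.0335) and KLF6 (0.0138) being added to EGR1 and KLF4. Leaving out 1 library each gave 13 to 317 higher, 20 to 471 lower and 0 to 4 of the 9 genes. DESeq2 over all libraries called 330 lower and 1 of the 9 genes, edgeR on the libraries compared 71 higher, 105 lower and 1, DESeq2 on those libraries 1, and library totals alone 124 lower. Genes lower in control numbered 1892 to 3075 with siEA1-1, 1767 to 2543 with siEA1-2 and 2030 to 3146 with their mean when 1 library was left out, against 2898, 2702 and 3131, and DESeq2 on the libraries compared gave 1782 with siEA1-2. Estimates near 0 changed sign when 1 library was left out. With siEA1-1 the log2FC ran from -0.10 to 0.66 for EGR3, from -0.21 to 0.29 for IER5 (-0.030 with upper quartile scaling), from -0.022 to 0.10 for ELK4 (-0.029 with upper quartile scaling) and from -0.029 to 0.024 for SRF (0.0010, 0.0039 and 0.0023 with RLE scaling and DESeq2 on all or the compared libraries). With siEA1-2 it ran from -0.17 to 0.089 for KLF3 and from -0.046 to 0.16 for EWSR1, with their mean from -0.013 to 0.19 for EWSR1, and between the siRNAs from -0.14 to 0.60 for IER3, from -0.065 to 0.21 for KLF10 and from -0.14 to 0.0066 for EWSR1. The causes were not tested.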

Other observations

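The 5 genes outside the group whose log2 CPM followed EGR1 most closely over the 6 libraries were ENSG00000260917 (Pearson r = 0.998), VN1R1 (0.995), POLR2F (0.994), LINC02184 (0.993) and EFCAB6 (0.992). The 6 points share the grouping into control and knockdown, and none of these genes is in the immediate early list. The 5 were picked as the highest r among the genes tested. VN1R1 (10 to 19 reads per library), LINC02184 (12 to 21) and EFCAB6 (11 to 26) had few reads and were called in no comparison. POLR2F, a subunit of the RNA polymerases, was at 48.6 and 41.5 CPM in control and 78.8 and 80.4 with siEA1-1 and 61.1 and 54.9 with siEA1-2 (log2FC of control over siEA1-2 -0.36, adjusted p = 0.0378). With the longest transcript in place of all exons as the length, KLF4 stood before KLF10 with siEA1-1, at 20.5 and 18.7 CPM per kb, and the libraries overlapped.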
